A study of Mus musculus with 5 samples.

Results

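Periportal sinusoidal endothelial cells are the cells that line the liver sinusoid near the portal tract. Here they were single cells chosen by their own molecule counts from liver non-parenchymal cells, and 3030 of 19815 cells were taken. A cell had to hold at least 500 molecules and 200 genes with at most 25% mitochondrial molecules. It then needed at least 10 molecules of Stab2, Clec4g, Kdr and Dnase1l3 together and at least 6 of Stab2 and Clec4g, fewer than 10 of the Kupffer cell genes Clec4f, Cd5l and Vsig4, and at most 2 of the angiogenic genes Esm1 and Angpt2. The periportal step asked for at least 2 molecules of Efnb2, Dll4 and Ntn4 together, none of the pericentral genes Kit and Wnt2, and at most 1 of the central vein genes Rspo3 and Wnt9b.

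The groups were livers with partial inferior vena cava ligation (pIVCL), which raises hepatic venous pressure and models congestive hepatopathy, and livers after sham surgery. All mice were wild-type males operated on at 9 weeks of age and studied 2 weeks later. There were 3 pIVCL libraries and 2 sham libraries, each labelled as coming from a mouse. pIVCL 1 and both sham libraries were of batch 2021.3, and pIVCL 2 and pIVCL 3 were of batch 2021.7, so that a comparison within a batch is possible for pIVCL 1 alone. Values per library are given below in the order pIVCL 1, 2 and 3, then sham 1 and 2. The periportal cells numbered 448, 691 and 206 in the pIVCL libraries and 853 and 832 in the sham libraries, with 1842218, 3022882 and 921201 molecules against 4379496 and 4107800. A median periportal cell held 3911.5, 4001 and 4235.5 molecules in pIVCL, against 4914 and 4708 in sham.

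Blood enters the sinusoid at the portal tract, rich in oxygen and gut-derived material, and leaves it at the central vein. Sinusoidal endothelium is fenestrated, lacks an organised basement membrane and clears waste molecules from the blood by scavenger receptors. Its cells differ along the sinusoid: those near the portal tract carry ephrin-B2, the Notch ligand Dll4 and other genes shared with arterial endothelium, whereas those near the central vein make Wnt ligands, among them Wnt2, and carry the receptor Kit.

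Periportal cells made up 48.2, 60.9 and 54.6% of the sinusoidal cells in the pIVCL libraries, against 32.3 and 37.0% in the sham libraries. The exact 95% binomial intervals, which cover counting error only, ran from 45.0 to 63.8% over the pIVCL libraries and from 30.5 to 39.1% over the sham libraries. The 3 periportal genes did little of this selection: 87.8, 91.9 and 88.9% of sinusoidal cells in pIVCL and 83.1 and 86.3% in sham had at least 2 molecules of them. The absence of Kit and Wnt2 set more cells apart, at 53.8, 68.3 and 63.1% of sinusoidal cells in pIVCL, against 34.3 and 39.2% in sham. Cells with at least 2 molecules of Kit and Wnt2 were 20.9, 12.5 and 14.1% in pIVCL and 45.6 and 40.3% in sham. Depth was lower in pIVCL, so each cell was thinned to 2000 molecules, which left out 15, 31 and 14 sinusoidal cells in pIVCL and 0 in both sham libraries. Kit was then found in 17.7, 10.1 and 13.5% of sinusoidal cells in pIVCL, against 34.2 and 28.9% in sham. The limit on Esm1 and Angpt2 also acted unequally, since it removed 34.8, 36.8 and 43.4% of otherwise accepted sinusoidal cells in pIVCL and 2.90 and 4.30% in sham. Without it the periportal share was 53.1, 61.3 and 55.6% in pIVCL and 33.2 and 38.2% in sham. Of all cells that passed the filters, periportal cells were 17.2, 19.8 and 7.28% in pIVCL and 19.2 and 21.7% in sham. These shares follow from the genes of the selection and were not tested.

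**Figure D1:**
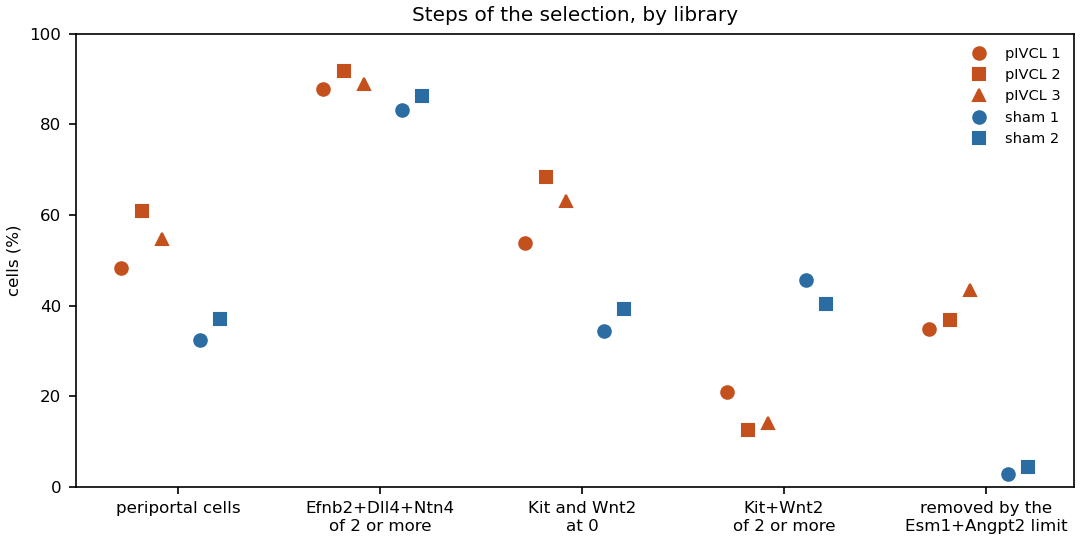
Percent of cells at each step of the selection, with 1 point per library and pIVCL libraries (orange) left of sham libraries (blue). The first 4 columns are shares of sinusoidal cells and the last is the share removed by the Esm1 and Angpt2 limit; the periportal share was 48.2 to 60.9% in pIVCL and 32.3 to 37.0% in sham.

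The genes that chose the cells are given as a description. Ntn4, which encodes a secreted netrin of basement membranes, stood at 2007, 2269 and 1586 counts per 1000000 (CPM, scaled by the trimmed mean of M-values) in pIVCL, against 1775 and 1770 in sham. Dll4 was at 539, 598 and 591 CPM in pIVCL and 343 and 330 in sham, and every pIVCL library lay above both sham libraries. Efnb2, the ephrin-B2 ligand of arterial and periportal endothelium, was at 317, 336 and 247 CPM in pIVCL and 274 and 357 in sham, so that its groups overlapped. Stab2, a scavenger receptor for hyaluronan, was at 1182, 914 and 943 CPM in pIVCL and 1475 and 1409 in sham. Dnase1l3, a secreted nuclease, was at 5884, 3666 and 3320 CPM against 6913 and 7129. Esm1 reached 69.5, 78.4 and 59.0 CPM in pIVCL and 15.7 and 18.8 in sham, within the limit of 2 molecules a cell. All 3 periportal genes were found together in 41.5, 51.7 and 51.9% of the pIVCL periportal cells and in 45.1 and 48.2% of the sham ones.

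The label was checked on genes outside the rule. The sinusoidal genes Mrc1 (the mannose receptor) and Fcgr2b (the inhibitory Fc receptor of this endothelium) stood at 1729.5, 1219.8 and 1322 CPM and at 4222, 3008 and 2388 CPM in pIVCL, against 2306 and 2571 CPM and 5084 and 5342 CPM in sham. Large-vessel genes were not all low. Vwf (von Willebrand factor) was at 6.72, 11.8 and 40.4 CPM in pIVCL and 19.2 and 19.3 in sham, and Gja5 (an arterial connexin) at 2.80, 4.71 and 9.32 CPM against 15.2 and 13.9. Sox17, a transcription factor of arterial endothelium, stood at 158, 188 and 159 CPM in pIVCL and 126 and 133 in sham, and Ackr1, a chemokine-binding receptor of venular endothelium, at 72.8, 68.3 and 50.7 CPM against 106 and 81.8. Transcripts of other cells made up a small share of the molecules, and the hepatocyte, Kupffer and stellate lists lay above both sham libraries in all pIVCL libraries. The 22 hepatocyte genes made up 0.121, 0.181 and 0.159% of the molecules in pIVCL periportal cells and 0.0820 and 0.0326% in sham ones, and the 12 Kupffer cell genes 0.0745, 0.119 and 0.102% against 0.0532 and 0.0549%. The 12 stellate cell genes made up 0.0342, 0.0571 and 0.120% in pIVCL and 0.0132 and 0.0110% in sham, with Dcn in 15.2, 10.4 and 11.7% of cells against 5.74 and 6.13%. The erythroid list, at 0.00603, 0.186 and 0.124% in pIVCL and 0.00267 and 0.0356% in sham, and the leukocyte list, at 0.00304, 0.0171 and 0.00445% against 0.0105 and 0.00545%, overlapped between the groups. The cholangiocyte list was lower in pIVCL, at 0.00038, 9.92e-05 and 0.000109% against 0.00132 and 0.000925%. The part of these transcripts in the results below was not tested. Epcam, of the cholangiocyte list, had 0, 1 and 0 molecules in pIVCL and 7 and 7 in sham. Pairs of libraries shared 8 to 30 cell index numbers, of which 0 to 2 lay among periportal cells.

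Among the periportal cells the marker sum of Efnb2, Dll4 and Ntn4 was a graded quantity, with a median of 10, 12 and 10 molecules in pIVCL and 10 and 10 in sham. Genes outside the rule moved with it in every library. Msr1, a scavenger receptor for modified lipoproteins, stood at 418, 232 and 136 molecules per 1000000 in pIVCL cells with a sum of 2, and at 749 and 781 in such sham cells. In cells with a sum of at least 20 it stood at 1833, 2034 and 2132 per 1000000 in pIVCL and 2571 and 2230 in sham. The pIVCL libraries lay below both sham libraries in each of the 5 ranges of the sum. Efnb1, a second transmembrane ephrin, reached 600.1, 752 and 887 per 1000000 at a sum of at least 20 in pIVCL and 608 and 553 in sham, against 196, 96.0 and 102 in pIVCL and 81.5 and 106 in sham at a sum of 2. Adgrg6, an adhesion G protein-coupled receptor, was found mainly in cells of high sum, at 123, 194 and 472 per 1000000 at 20 or more in pIVCL and 415 and 459 in sham, and at 0 at a sum of 2 in all 5 libraries.

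Of 2 large-vessel genes, Vwf was highest in the range of 20 or more in all 5 libraries, and Gja5 in all but pIVCL 1. Gja5 was at 0, 16.1 and 73.2 molecules per 1000000 at a sum of at least 20 in pIVCL and at 68.0 and 70.2 in sham, and Vwf at 19.9, 22.3 and 114 against 74.7 and 70.2. These ranges held 59, 163 and 24 cells in pIVCL and 132 and 108 in sham. Whether large-vessel endothelium was among them was not tested.

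Lfng and Lyve1 ran the other way along the sum. Lfng, a glycosyltransferase that modifies Notch receptors, stood at 99.0, 249 and 200.3 per 1000000 at a sum of 3 to 4 in pIVCL and 30.2 and 26.9 in sham, and at 19.9, 48.4 and 16.3 against 22.7 and 8.96 at 20 or more. Lyve1, a hyaluronan receptor of sinusoidal and lymphatic endothelium, was at 1834, 4950 and 5304 per 1000000 at a sum of 3 to 4 in pIVCL and 915 and 816 in sham. At 20 or more it was at 968, 2177 and 1619 against 235 and 311, and in every range of the sum all pIVCL libraries lay above both sham libraries. The sum rises with the depth of a cell: median molecules at 20 or more were 4761, 4380 and 4550 in pIVCL and 5113 and 5413 in sham, against 3386, 3922 and 3743 and 4828 and 4328 at a sum of 3 to 4. Its part in these gradients was not tested.

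Just inside the threshold, at a sum of 2, there were 23, 27 and 7 cells in pIVCL and 42 and 33 in sham. Just outside, at a sum of 1, there were 23, 26 and 14 cells in pIVCL and 31 and 29 in sham. Msr1 was at 418, 232 and 136 per 1000000 just inside in pIVCL and 749 and 781 in sham, and at 506, 171 and 293 just outside in pIVCL and 795 and 702 in sham. For the Kit and Wnt2 condition all cells with a marker sum of at least 2 were compared, so the 2 steps are not alike. Among these cells, Msr1 was at 1213, 1340 and 1457 per 1000000 in pIVCL and 2004 and 1923 in sham where Kit and Wnt2 were at 0. It was at 818, 719 and 792 against 1273 and 1294 where 1 such molecule was found. Ntn4, of the marker sum, was at 1945, 2230 and 1663 per 1000000 in pIVCL and 1729 and 1676 in sham where they were at 0. With 1 such molecule Ntn4 was at 1568, 1605 and 1021 against 980 and 940. The part of the marker sum in the Msr1 values was not tested.

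**Figure D2:**
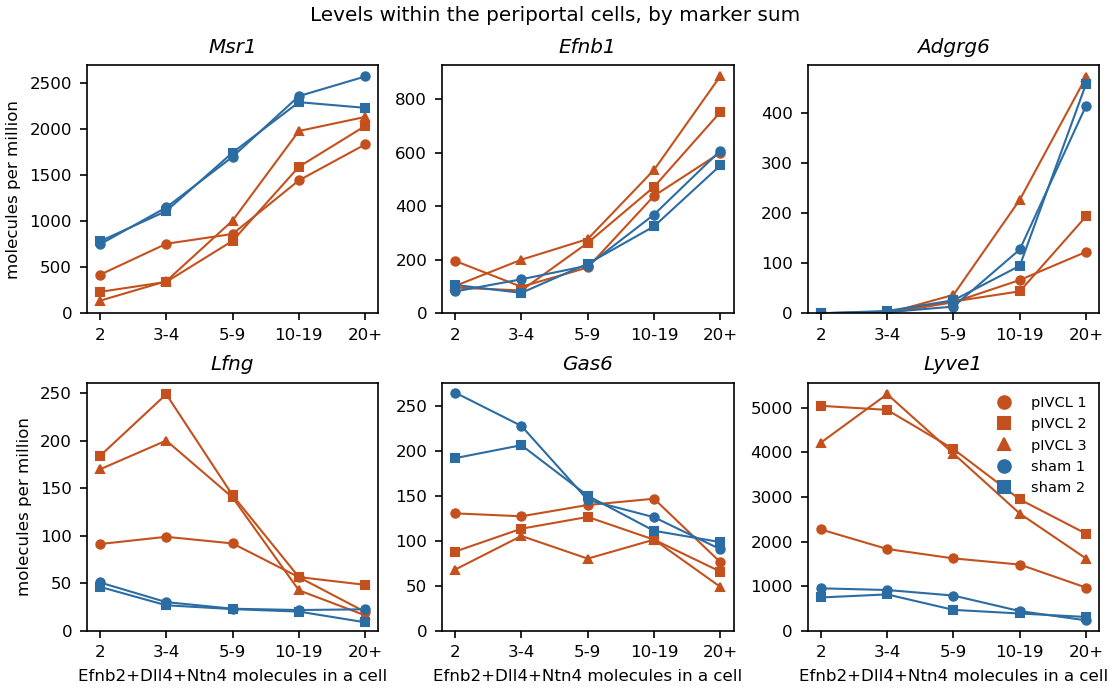
Molecules per 1000000 of 6 genes outside the rule in periportal cells grouped by their Efnb2, Dll4 and Ntn4 molecules (horizontal axis), with a line per library, pIVCL in orange and sham in blue. Msr1, Efnb1 and Adgrg6 are higher at 20 or more than at 2 in every library, Lfng and Lyve1 are lower at 20 or more than at 3 to 4 in every library, and pIVCL lies above sham for Lyve1 in every range.

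To place these cells along the sinusoid they were set beside sinusoidal cells of the same libraries with at least 2 molecules of Kit and Wnt2, at any level of the periportal genes (194, 142 and 53 cells in pIVCL, 1204 and 905 in sham; called Kit-Wnt2-positive cells). This comparison population was added after the cell counts were seen, because pericentral cells that lacked all periportal markers numbered 10, 4 and 1 in pIVCL and 118 and 60 in sham. Since the cells had been set apart by their own counts, ratios of zones are a description. Of 5091 genes with a mean log2 CPM of at least 5 outside the rule, 491 (9.64%) were higher and 471 (9.25%) lower in periportal cells in every library. Of 16 measured genes of a list of further periportal genes, 12 were higher in every library and 1 (Pla2r1) was lower. Of 9 measured further pericentral genes, 0 were higher and 5 were lower in every library (Cdh13, Ptgs1, Fabp4, Lfng and Gas6). Of 8 measured large-vessel genes, Sox17 and Ackr1 were higher in every library and 0 were lower.

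The most unequal genes of the periportal side were of several kinds. Mecom, a zinc finger transcription factor of arterial endothelium and blood stem cells, had log2 ratios of periportal over Kit-Wnt2-positive cells of 2.10, 2.05 and 1.52 in pIVCL and 2.01 and 1.69 in sham. Ly6a, the Sca-1 surface antigen, had log2 ratios of 1.76, 2.04 and 1.28 in pIVCL and 2.09 and 2.01 in sham. Efnb1 had log2 ratios of 2.02, 1.5 and 1.81 in pIVCL and 1.89 and 1.72 in sham. For each of these 3 genes the pIVCL and sham ratios overlapped. Msr1 was at 1213, 1340 and 1457 molecules per 1000000 in periportal cells and 405, 426 and 542 in Kit-Wnt2-positive cells of pIVCL livers, and at 2004 and 1923 against 688 and 653 in sham livers. Adgrg6 was at 52.1, 73.1 and 167 per 1000000 in periportal cells and 12.6, 4.99 and 0 in Kit-Wnt2-positive cells of pIVCL livers, and at 125 and 119 against 2.99 and 3.25 in sham livers. Slc45a4, a solute carrier, was at 104, 173 and 107 per 1000000 in periportal cells of pIVCL livers against 9.71, 21.2 and 39.7 in their Kit-Wnt2-positive cells, and at 44.8 and 41.9 against 0.711 and 0.955 in sham livers. Ddit4, a stress-induced inhibitor of mTOR signalling, had log2 ratios of 1.45, 1.33 and 1.63 in pIVCL and 1.68 and 2.04 in sham.

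On the other side, Lfng had log2 ratios of -1.69, -1.09 and -1.66 in pIVCL and -2.02 and -2.16 in sham. Lgals1, a galactose-binding lectin, had log2 ratios of -1.26, -1.23 and -1.29 in pIVCL and -1.71 and -2.05 in sham. Plau, the urokinase-type plasminogen activator, had log2 ratios of -0.89, -0.99 and -0.84 in pIVCL and -2.14 and -2.86 in sham, with no overlap between the groups. Gas6, a ligand of the receptors Axl and Mertk, had log2 ratios of -0.89, -0.83 and -0.88 in pIVCL and -1.36 and -1.24 in sham. Bmp2, the sinusoidal ligand that drives hepcidin in hepatocytes, differed little, with log2 ratios of -0.30, -0.38 and -0.18 in pIVCL and -0.28 and -0.34 in sham.

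Interferon-induced genes were a further group on the periportal side. Of 18 measured members 10 were higher in periportal cells in every library, 0 were lower in every library, and the median log2 ratio was 0.38. Gbp4, an interferon-induced GTPase, had log2 ratios of 0.59, 0.39 and 0.92 in pIVCL and 0.61 and 0.46 in sham. Iigp1, another such GTPase, had log2 ratios of 0.48, 0.41 and 0.34 in pIVCL and 0.64 and 0.38 in sham. Basement membrane genes were split, with 3 of 13 higher in every library and 6 lower. The collagen IV chain Col4a2 was among the 6, with log2 ratios of -0.39, -0.60 and -0.45 in pIVCL and -0.25 and -0.27 in sham.

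**Figure D3:**
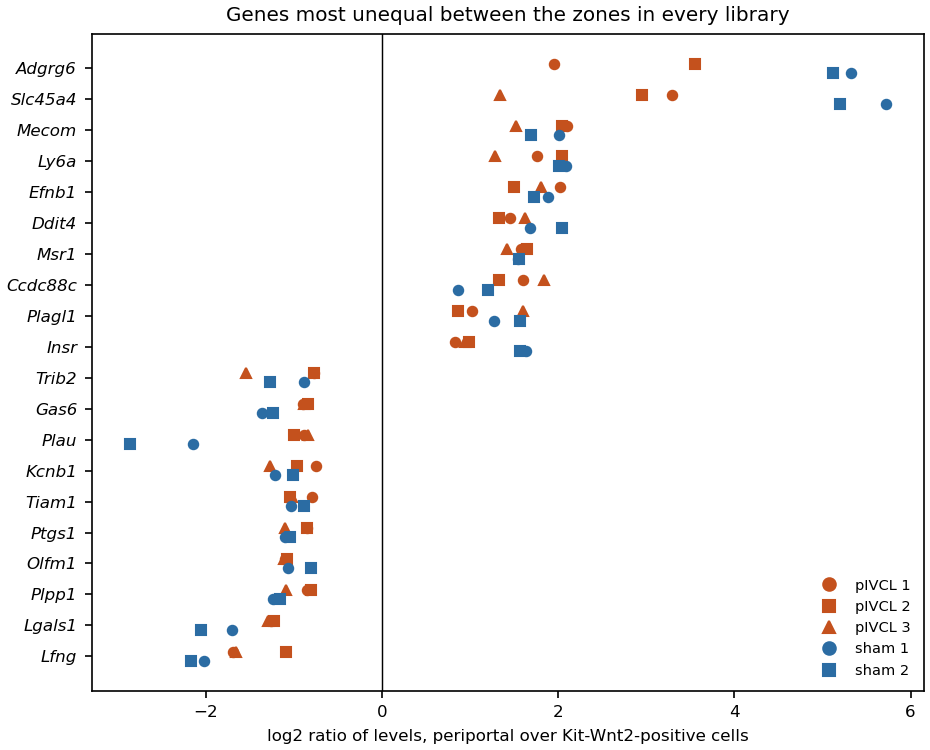
Log2 ratio of the level in periportal cells over Kit-Wnt2-positive cells (horizontal axis) for the 20 genes most unequal in every library, with 1 point per library, pIVCL in orange above sham in blue. Points right of 0 are higher in periportal cells; the point of Adgrg6 in pIVCL 3 is left out because no molecule was found in its Kit-Wnt2-positive cells, and Plau lies nearer to 0 in all pIVCL libraries than in either sham library.

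The comparison of pIVCL with sham within the periportal cells asked how the congested liver changed them. Plau, Pdgfb, Igfbp3, Depp1, Lyve1, Cxcl12 and Lfng rose, and Tiam1, Slc26a10, Slco2a1, Hpgd, Hgf, Thbd, Ly6a and Mertk fell. By edgeR's quasi-likelihood test on molecules summed per library, with Benjamini-Hochberg adjustment over 10530 genes, 58 genes (0.551%) were higher and 38 (0.361%) were lower in pIVCL at an adjusted p under 0.05. The groups did not overlap upward in 16.7% of genes and downward in 16.9%. The count of 96 depended on single libraries: it was 1337 without pIVCL 1, 15 without pIVCL 2, 9 without pIVCL 3, 12 without sham 1 and 6 without sham 2. It was 56 with batch as a term, of which 36 were among the 96, and 574 in batch 2021.3 alone, where the lone pIVCL library is assumed to vary like the sham ones. Plau, Pdgfb, Tiam1 and Slc26a10 were called under all 18 alternatives. With batch as a term 24 of the 42 called genes named under the rule stayed called. The 18 that did not were Igfbp3, Ccn2, Serping1, Tox2, Sntb1, Mertk, Podxl, Selp, Cebpd, Efna1, Dab2, Gbp4, Ajuba, Slc45a4, Hand2, Ahsg, Ly6c1 and Spp1. The DESeq2 Wald test called 287 genes, and its counts stand beside those of each list below.

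Secreted factors and growth factors were the endothelial list with most calls: of 14 tested angiocrine genes 4 rose and 1 fell (4 higher and 2 lower by DESeq2), against 96 of all 10530 genes, and their median log2 fold change was 0.42 against 0.0059 over all genes. Pdgfb, the ligand that recruits pericytes and stellate cells, stood at 82.3, 107 and 136 CPM in pIVCL, against 17.4 and 20.3 CPM in sham. Every pIVCL library lay far above both sham libraries, and the log2 fold change was 2.51 ± 0.24 (SE; adjusted p = 0.00357), or 1.68 among cells with a marker sum of at least 10. Igfbp3, a binding protein of insulin-like growth factors, stood at 45.9, 71.0 and 147 CPM in pIVCL and at 3.28 and 3.34 CPM in sham. Its log2 fold change was 4.65 ± 0.62 (adjusted p = 0.0385), but 3.06 with stricter removal of possible doublets, 3.77 in batch 2021.3 alone and 3.78 and not called with batch as a term. Among cells with a marker sum of at least 10 it was 6.13 and not called. Cxcl12, a chemokine that binds Cxcr4, was at 72.3, 86.5 and 100.4 CPM in pIVCL and 21.6 and 19.3 in sham, a log2 fold change of 2.06 ± 0.20 (adjusted p = 0.00362). With stricter removal of possible doublets, which also leaves out cells with stellate transcripts, it was 1.03 and not called.

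Ccn2, a matricellular protein and target of the mechanosensitive factors YAP and TEAD, was at 1055, 422 and 935 CPM in pIVCL and at 45.5 and 78.9 CPM in sham. The groups were far apart, yet the pIVCL libraries spread widely, and the log2 fold change of 3.69 ± 0.51 lay at the edge of the threshold (adjusted p = 0.0499, lost under 12 of 18 alternatives). Hgf, the hepatocyte growth factor, fell to 45.4, 45.8 and 63.2 CPM in pIVCL, against 117 and 124 CPM in sham. Its log2 fold change was -1.26 ± 0.17 (adjusted p = 0.0171), with no overlap of the libraries. Bmp2 averaged 1376 ± 390 CPM in pIVCL and 2516 ± 277 CPM in sham (SD, n = 3 and n = 2), which did not pass the edgeR test (adjusted p = 0.112).

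Of 14 tested YAP and TEAD target genes 2 rose (Ccn2 and Ajuba), 0 fell and 12 did not pass (5 higher and 0 lower by DESeq2), with a median log2 fold change of 0.73. Ajuba, a LIM domain protein of cell junctions, was at 32.5, 46.8 and 63.2 CPM in pIVCL and 15.5 and 16.2 in sham, a log2 fold change of 1.55 ± 0.27 (adjusted p = 0.0385). In 9 of the 14 genes the pIVCL libraries all lay above both sham libraries, and in 1 all lay below. Over all genes tested these shares were 16.7 and 16.9%.

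Genes of the pericentral side were among those that rose in the periportal cells. The condition of no Kit and Wnt2 molecule admitted 53.8, 68.3 and 63.1% of sinusoidal cells in pIVCL and 34.3 and 39.2% in sham. The part of this unequal admission in the changes below was not tested. Of 13 tested further pericentral genes 3 rose (Lfng, Selp and Cebpd) and 1 fell (Thbd) by edgeR, 5 were higher and 2 lower by DESeq2, and their median log2 fold change was 0.71. Lfng was at 69.5, 101 and 87.0 CPM in pIVCL and at 25.3 and 22.1 CPM in sham, a log2 fold change of 1.86 ± 0.21 (adjusted p = 0.00807). It was 1.22 and not called among cells with a marker sum of at least 10. Lfng was also found in Kupffer cells, as given with Lyve1 below. Selp, the leukocyte adhesion molecule P-selectin, was at 14.6, 16.5 and 34.2 CPM in pIVCL and 1.64 and 2.57 in sham, a log2 fold change of 3.27 ± 0.49 (adjusted p = 0.0281). Among cells of a sum of at least 10 this was 1.17 and not called. Cebpd, a transcription factor induced in inflammation, rose by a log2 fold change of 1.11 ± 0.20 (adjusted p = 0.0423). Fabp4, a fatty acid binding protein, was at 527, 946 and 1049 CPM in pIVCL and 342 and 281 in sham and did not pass (adjusted p = 0.0787).

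Of 18 further periportal genes 1 rose (Galnt15) and 1 fell (Podxl) by edgeR, while DESeq2 called Galnt15 higher and 4 lower (Adam23, Il1a, Msr1 and Podxl), and the median log2 fold change of the list was 0.049. Galnt15, an enzyme of protein O-glycosylation, was at 217, 218 and 225 CPM in pIVCL and 118 and 125 CPM in sham, a log2 fold change of 0.85 ± 0.13 (adjusted p = 0.031). Podxl, a sialomucin of the luminal surface, averaged 112 ± 23.3 CPM in pIVCL and 244 ± 23.7 CPM in sham, a log2 fold change of -1.12 ± 0.18 (adjusted p = 0.031). Msr1 averaged 1335 ± 73.2 CPM in pIVCL and 2045 ± 19.1 CPM in sham, and did not pass by edgeR (log2 fold change -0.62 ± 0.13, adjusted p = 0.0685). Efnb1 was at 348, 452 and 430 CPM in pIVCL and 326 and 298 in sham (adjusted p = 0.263), and its log2 fold change of 0.39 was -0.049 without the limit on Esm1 and Angpt2. Adgrg6 at 53.8, 74.4 and 159 CPM in pIVCL and 129 and 125 in sham overlapped between groups (adjusted p = 0.644).

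Notch receptors and most of their partners showed no call. Of 19 tested genes of this pathway outside the rule, 1 rose (Lfng) and 18 did not pass by edgeR, and DESeq2 also called Lfng alone. By edgeR 6 had an unadjusted p under 0.05. In 3 of the 19 all pIVCL libraries lay above both sham libraries, and in 5 all lay below, against 16.7 and 16.9% of all genes tested. Notch1, the main endothelial receptor of Dll4, averaged 381 ± 39.3 CPM in pIVCL and 402 ± 14.9 CPM in sham. Notch4, the endothelial paralogue, was at 91.3, 81.8 and 89.0 CPM in pIVCL and 84.9 and 83.1 in sham. Hes1, a target of the pathway, was at 363, 726 and 380.0 CPM in pIVCL and 342 and 364 CPM in sham (adjusted p = 0.495). The target Hey1 was at 5.60, 36.7 and 29.0 CPM in pIVCL and 7.74 and 9.51 in sham (adjusted p = 0.351). The ligand Jag1 was at 24.1, 27.9 and 53.8 CPM in pIVCL and 39.6 and 24.7 in sham, so that its groups overlapped.

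A transporter and an enzyme that handle prostaglandins fell. Slco2a1, the prostaglandin transporter, was at 123, 55.2 and 63.2 CPM in pIVCL and at 344 and 300.3 CPM in sham, a log2 fold change of -2.00 ± 0.32 (adjusted p = 0.0483) that was -1.40 in batch 2021.3 alone. Hpgd, the enzyme that inactivates prostaglandins once they are taken up, was at 197, 119 and 111 CPM in pIVCL and 412 and 503 CPM in sham, a log2 fold change of -1.68 ± 0.24 (adjusted p = 0.031). These were the 2 genes called by edgeR and by DESeq2 of 7 tested in this list. The cyclooxygenase gene Ptgs1, at 177, 160 and 197 CPM in pIVCL and 151 and 166 in sham, did not pass (adjusted p = 0.651).

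Of 16 tested genes of the response to blood flow 0 rose and 2 fell (Thbd and Slco2a1) by edgeR, and 9 had an unadjusted p under 0.05. DESeq2 called the same genes lower and 2 others, Edn1 and Tinagl1, higher, and the median log2 fold change was 0.0024. Thbd, thrombomodulin, which turns thrombin into an activator of protein C, was at 45.4, 50.2 and 50.7 CPM in pIVCL and 99.9 and 120.3 CPM in sham, a log2 fold change of -1.18 ± 0.16 (adjusted p = 0.0171). Klf2, a flow-induced transcription factor, was at 1249, 1481 and 746 CPM in pIVCL and 836 and 1492 CPM in sham (adjusted p = 0.997). Nos3, the endothelial nitric oxide synthase, averaged 89.4 ± 7.57 CPM in pIVCL and 128 ± 19.6 CPM in sham (adjusted p = 0.159). In the coagulation list Plau rose as Thbd fell, among 10 tested genes, and DESeq2 called Tfpi lower as well. Plau was at 117, 177 and 165 CPM in pIVCL and at 18.99 and 10.5 CPM in sham, a log2 fold change of 3.36 ± 0.29 (adjusted p = 0.00357), or 4.15 among cells with a marker sum of at least 10.

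The scavenging and surface genes moved unequally. Of 22 tested sinusoidal identity genes 1 rose (Lyve1), 0 fell and 21 did not pass by edgeR, with 9 at an unadjusted p under 0.05. DESeq2 called 2 higher (Lyve1 and Oit3) and 2 lower (Mrc1 and Plxnc1), and the median log2 fold change was -0.26. In 12 of the 22 all pIVCL libraries lay below both sham libraries, and in 3 all lay above, against 16.9 and 16.7% of all genes tested. Lyve1 was at 1562, 3348 and 3105 CPM in pIVCL and at 594 and 487 CPM in sham. The log2 fold change was 2.30 ± 0.35 (adjusted p = 0.0423), and 1.52 in batch 2021.3 alone. After thinning to 2000 molecules a cell, Lyve1 was found in 64.0, 80.2 and 80.2% of periportal cells in pIVCL and 36.9 and 33.5% in sham (72.3, 85.4 and 86.9% against 48.8 and 45.2% unthinned). Kupffer cells of the same libraries, at median depths of 5729, 6150 and 4209.5 molecules in pIVCL and 7856.5 and 7060 in sham, gave 4.41, 6.40 and 7.58% and 1.19 and 3.03% after the same thinning. Thinned alike, Lfng was found in 23.5, 40.9 and 42.9% of Kupffer cells in pIVCL and 34.2 and 22.6% in sham. In periportal cells its shares were 9.11, 12.6 and 10.7% and 3.87 and 3.97%. Msr1 was found in 63.2, 73.9 and 66.7% of Kupffer cells in pIVCL and 83.6 and 79.5% in sham. In periportal cells it was found in 71.1, 68.5 and 69.0% and 87.7 and 88.0%. The part of Kupffer transcripts in the Lfng and Msr1 values was not tested. Mrc1 averaged 1424 ± 270 CPM in pIVCL and 2438 ± 188 CPM in sham (adjusted p = 0.0751), and Fcgr2b 3206 ± 933 CPM against 5213 ± 183 CPM (adjusted p = 0.169). Dab2, an adaptor of clathrin-mediated uptake, was the 1 edgeR call among 22 tested endocytosis and lysosome genes (3 by DESeq2), with a log2 fold change of -0.88 ± 0.16 (adjusted p = 0.0385). Mertk, a receptor for Gas6 on phagocytic and endothelial cells, fell to 152, 107 and 76.6 CPM in pIVCL, against 277 and 288 CPM in sham (log2 fold change -1.32 ± 0.24, adjusted p = 0.0481).

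Ly6a averaged 615 ± 76.3 CPM in pIVCL and 1342 ± 80.5 CPM in sham, a log2 fold change of -1.13 ± 0.15 (adjusted p = 0.0171). The related antigen Ly6c1 was represented by 2, 0 and 0 molecules in pIVCL and 78 and 44 molecules in sham (adjusted p = 0.024). Both belong to a family of similar genes, and how reads shared between its copies were counted is not stated. Apln, which encodes the peptide apelin of endothelial tip cells, had 21, 109 and 17 molecules in pIVCL and 1 and 0 in sham (adjusted p = 0.0171). Those 3 genes were the edgeR calls, of 6 by DESeq2, among 17 tested genes of capillarization, the change of sinusoids towards ordinary capillaries, and the list's median log2 fold change was -0.075. Plvap, the protein of fenestral diaphragms, was at 318, 587 and 909 CPM in pIVCL and 206 and 187 CPM in sham and did not pass (adjusted p = 0.165). Cd34 averaged 33.1 ± 14.2 CPM in pIVCL and 79.0 ± 8.04 CPM in sham (adjusted p = 0.0947). Of 17 tested basement membrane genes 0 were called by edgeR (9 at an unadjusted p under 0.05, and 4 called by DESeq2), and the median log2 fold change was 0.50. In 8 of them all pIVCL libraries lay above both sham libraries and in 2 all lay below, against 16.7 and 16.9% of all genes tested.

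Tiam1, an activator of the GTPase Rac, had the lowest p of the falling genes, at 16.2, 10.8 and 8.28 CPM in pIVCL and 107 and 130 CPM in sham. Its log2 fold change was -3.29 ± 0.24 (adjusted p = 0.00105), and it also lay on the pericentral side of the zone ratios. Slc26a10, of the family of anion exchangers, was at 55.4, 34.0 and 42.4 CPM in pIVCL and 186 and 190 CPM in sham, a log2 fold change of -2.11 ± 0.19 (adjusted p = 0.00357). Col13a1, a transmembrane collagen, was at 167, 140 and 129 CPM in pIVCL and 367 and 366 CPM in sham (log2 fold change -1.33 ± 0.15, adjusted p = 0.00807). Insr, the insulin receptor, averaged 72.0 ± 10.3 CPM in pIVCL and 136 ± 1.57 CPM in sham (log2 fold change -0.94 ± 0.15, adjusted p = 0.0346).

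Depp1, a gene induced by FOXO transcription factors, was at 126, 286 and 346 CPM in pIVCL and at 9.85 and 14.1 CPM in sham, with a log2 fold change of 4.39 ± 0.53 (adjusted p = 0.0359) that was 3.39 in batch 2021.3 alone. The complement regulator Susd4 was at 47.0, 79.8 and 92.1 CPM in pIVCL and 12.7 and 14.9 CPM in sham (log2 fold change 2.39 ± 0.29, adjusted p = 0.0142). It was 1.76 in batch 2021.3 alone and 1.79 among cells with a marker sum of at least 10. Serping1, the C1 inhibitor, was at 55.4, 55.5 and 85.9 CPM in pIVCL and 16.2 and 6.69 CPM in sham, a log2 fold change of 2.47 ± 0.37 (adjusted p = 0.0346). It was 1.20 and not called with stricter removal of possible doublets, and 3.25 without sham 1. Efna1, an ephrin induced in inflamed endothelium, averaged 126 ± 17.3 CPM in pIVCL and 67.0 ± 3.49 CPM in sham (log2 fold change 0.92 ± 0.16, adjusted p = 0.0385).

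**Figure D4:**
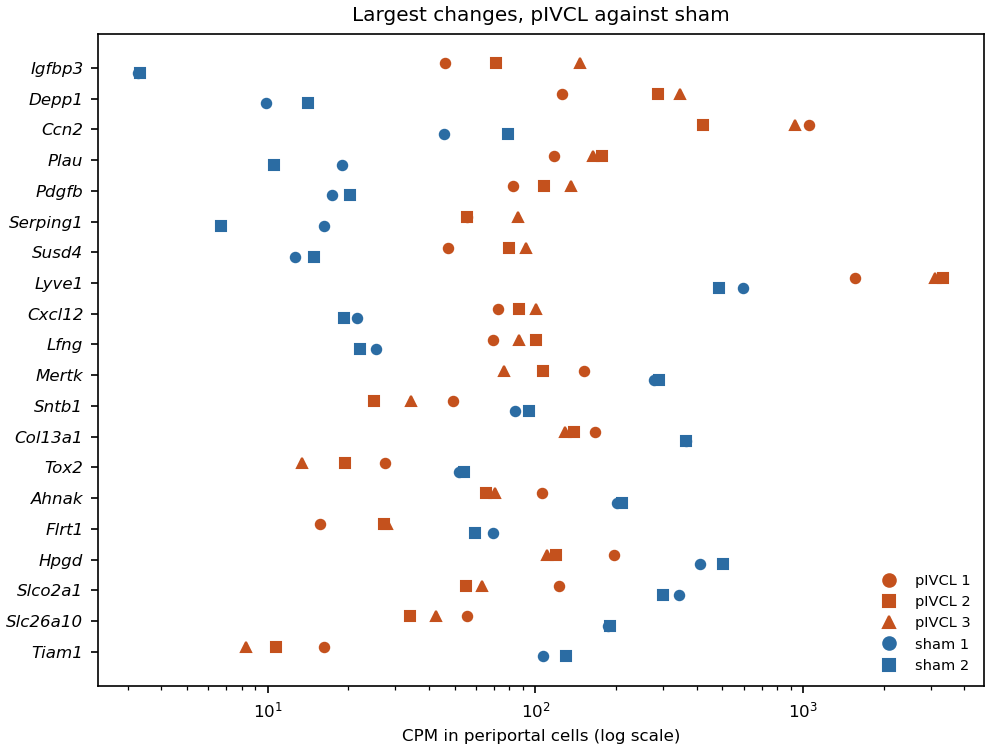
Level in periportal cells in CPM (log axis) of the 10 genes with the largest rises and the 10 with the largest falls among those called, with 1 point per library, pIVCL in orange above sham in blue. In each of the 20 genes the pIVCL and sham libraries do not overlap, and pIVCL 1, of the same batch as sham, lies on the pIVCL side.

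Of the 42 called genes named under the rule, 41 stayed called without pIVCL 1, 10 without pIVCL 2, 7 without pIVCL 3, 7 without sham 1 and 4 without sham 2. In batch 2021.3 alone 40 stayed called, and 24 did with batch as a term. Among cells with a marker sum of at least 10, 25 did, and the calls of Ccn2, Cxcl12, Galnt15, Mertk, Efna1 and Ajuba were among those lost. Without the limit on Esm1 and Angpt2 the calls of Igfbp3, Serping1, Tox2, Mertk, Selp, Hand2 and Cyp3a11 were lost. With stricter removal of possible doublets those of Serping1, Lyve1 and Cxcl12 were lost. That removal also leaves out cells with stellate transcripts, and Col1a2, Col3a1, Hand2 and Spp1 were not tested under it. Of all called genes 86 were tested there. With no expression filter the calls of Igfbp3, Depp1, Ccn2, Lyve1 and Slco2a1 were lost. Stricter limits on molecules and mitochondrial share ended the calls of Ccn2, Lyve1, Sntb1, Hand2, Rbp4 and Cyp3a11. Those of Ccn2, Sntb1, Insr and Ahsg were lost among cells of 3000 to 12000 molecules. Igfbp3, Sntb1 and Mertk were not called at a marker sum of at least 3. Among genes of other cells, 3 of 11 stellate genes were called higher (Col1a2, Col3a1 and Hand2, log2 fold changes 2.56, 2.61 and 2.36) and 3 of 22 hepatocyte genes (Ahsg, Rbp4 and Cyp3a11, log2 fold changes 1.52, 1.97 and 1.82). DESeq2 called 6 and 9 of these lists, each of them higher. Of the cholangiocyte list 1 gene was tested, Spp1, and it was called lower by edgeR and by DESeq2. The part of these genes of other cells in the other calls was not tested. When molecules of the hepatocyte, erythroid and Kupffer lists were removed before scaling, 108 genes were called.

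Inflammatory and stress groups gave few calls by edgeR. Of 19 tested interferon genes 0 rose and 1 fell (Gbp4, log2 fold change -1.09 ± 0.16, adjusted p = 0.0217), with 10 at an unadjusted p under 0.05, whereas DESeq2 called 3 higher (Bst2, Irf7 and Oasl2) and Gbp4 lower. In 9 all pIVCL libraries lay above both sham libraries and in 2 all below, against 16.7 and 16.9% of all genes tested. Cxcl9, a chemokine induced by interferon gamma, averaged 556 ± 154 CPM in pIVCL and 258 ± 29.1 CPM in sham and did not pass (adjusted p = 0.0642). Of 7 tested genes of antigen presentation on class II 0 were called by edgeR or DESeq2, and 0 had an unadjusted p under 0.05. The invariant chain Cd74 was at 91.3, 635 and 186 CPM in pIVCL and 51.6 and 167 in sham, and pIVCL 2 was the high library. Of 16 hypoxia and glycolysis genes 0 were called by edgeR (6 at an unadjusted p under 0.05, and 1, Adm, called by DESeq2). In 8 all pIVCL libraries lay above both sham libraries and in 0 all below, beside the same 16.7 and 16.9% of all genes. Adm, the vasodilator peptide adrenomedullin, averaged 143 ± 21.0 CPM in pIVCL and 54.5 ± 24.7 CPM in sham (adjusted p = 0.0691). Of 17 immediate-early genes, which respond to cell dissociation, 0 were called by edgeR or DESeq2 and 0 had an unadjusted p under 0.05, and Fos was at 1476, 709.55 and 208 CPM in pIVCL and 1444 and 2793 in sham.

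The last comparison asked whether the ligation acted unequally on periportal and Kit-Wnt2-positive cells. In edgeR's quasi-likelihood test of the difference of log2 fold changes, with library as a block, 29 of 10707 genes (0.271%) passed, 15 with the larger value in periportal cells and 14 with the smaller, and 760 had an unadjusted p under 0.05. The count was 39 without pIVCL 1, 75 without pIVCL 2, 62 without pIVCL 3, 10 without sham 1 and 12 without sham 2. It was 151 in batch 2021.3 alone. The 12 differences named here kept their direction under all 15 alternatives.

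Fbln2 and Edn1 rose in Kit-Wnt2-positive cells and did not pass the edgeR test in periportal cells. The periportal cells were not alike for both, since all pIVCL libraries lay above both sham libraries for Edn1, which DESeq2 called higher. The log2 fold change of Edn1 there was 1.30. Fbln2, a matrix protein named outside the rule for gene names, was at 14.0, 53.9 and 61.1 CPM in periportal cells of pIVCL livers and 39.2 and 48.6 CPM in those of sham livers. In Kit-Wnt2-positive cells it was at 35.0, 69.0 and 166 CPM in pIVCL and 3.40 and 1.60 CPM in sham. The log2 fold changes were -0.056 and 4.89, and their difference was -4.92 ± 0.37 (adjusted p = 3.76e-09). Edn1, the vasoconstrictor endothelin-1, was at 47.6, 36.0 and 72.5 CPM in periportal cells in pIVCL and 16.2 and 24.4 CPM in sham. In Kit-Wnt2-positive cells it was at 64.1, 36.4 and 89.6 CPM in pIVCL and 1.92 and 2.19 CPM in sham, and the difference of the log2 fold changes was -3.49 ± 0.35 (adjusted p = 2.81e-07). The pIVCL levels of both zones overlapped for Edn1, while the sham levels did not.

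Several genes that marked the zones were less unequal between them in pIVCL, while Cdkn1c and Cxcl10, given below, were more unequal. Btnl9, also given below, was higher in Kit-Wnt2-positive cells in sham and higher in periportal cells in pIVCL. The Kit-Wnt2-positive cells themselves differed between the groups. Among those with a marker sum of at least 2, cells with 5 or more Kit and Wnt2 molecules were 23, 12 and 7 in pIVCL. They were 334 and 236 in sham. Cells with 2 to 4 such molecules were 142, 116 and 37 in pIVCL and 577 and 486 in sham. The part of this in the differences was not tested. Cd36, a fatty acid and lipoprotein receptor listed on the periportal side, had log2 ratios of periportal over Kit-Wnt2-positive cells of 0.12, -0.11 and -0.26 in pIVCL and 0.71 and 0.71 in sham. Its log2 fold change was 0.043 in periportal and 0.83 in Kit-Wnt2-positive cells, a difference of -0.75 ± 0.083 (adjusted p = 2.39e-06). Galnt15 had log2 ratios of 0.98, 0.61 and 0.91 in pIVCL and 2.12 and 1.89 in sham, and its effect differed by -1.16 ± 0.16 (adjusted p = 7.58e-05). Slc45a4 rose in both zones, with log2 fold changes of 1.54 in periportal and 4.51 in Kit-Wnt2-positive cells, a difference of -2.83 ± 0.51 (adjusted p = 0.005). On the pericentral side, Plau rose in both, by log2 fold changes of 3.36 in periportal and 1.80 in Kit-Wnt2-positive cells, and the difference was 1.56 ± 0.18 (adjusted p = 3.66e-06).

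Jup, the junction protein plakoglobin, was at 40.3, 53.5 and 76.6 CPM in periportal cells in pIVCL and 12.9 and 24.4 CPM in sham, while in Kit-Wnt2-positive cells it was at 94.1, 119 and 118 CPM in pIVCL and 118 and 133 CPM in sham. The difference of the effects was 1.73 ± 0.21 (adjusted p = 1.05e-05). Btnl9, a butyrophilin-like surface protein, had log2 fold changes of 0.088 and -0.63, a difference of 0.75 ± 0.093 (adjusted p = 1.05e-05). It was at 380, 553 and 581 CPM in periportal cells in pIVCL and 503 and 445 CPM in sham. In Kit-Wnt2-positive cells Btnl9 was at 260, 359 and 458 CPM in pIVCL and 585 and 506 CPM in sham. Cdkn1c, the cell cycle inhibitor p57, was at 179, 341 and 293 CPM in periportal cells in pIVCL and 152 and 144 CPM in sham. In Kit-Wnt2-positive cells it was at 67.1, 65.2 and 48.0 CPM in pIVCL and 81.4 and 82.8 CPM in sham, a difference of 1.20 ± 0.20 (adjusted p = 0.00448). The chemokine Cxcl10, the chloride channel regulator Clca3a1 and the creatine synthesis enzyme Gatm differed by -0.62 ± 0.10, -1.02 ± 0.19 and 0.47 ± 0.089 (adjusted p = 0.00147, 0.00813 and 0.00924). Cxcl10 was at 371, 254 and 125 CPM in periportal cells in pIVCL and 211 and 343 CPM in sham. In Kit-Wnt2-positive cells it was at 620, 394 and 176 CPM in pIVCL and 218 and 349 CPM in sham. Without sham 1 the calls of Cdkn1c, Cxcl10, Gatm, Clca3a1 and Slc45a4 were lost, and without sham 2 those of Cdkn1c, Cxcl10 and Gatm. In batch 2021.3 alone those of Cdkn1c (0.57 there), Clca3a1 and Slc45a4 were lost, without the limit on Esm1 and Angpt2 that of Cdkn1c, and at a marker sum of at least 10 that of Jup.

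**Figure D5:**
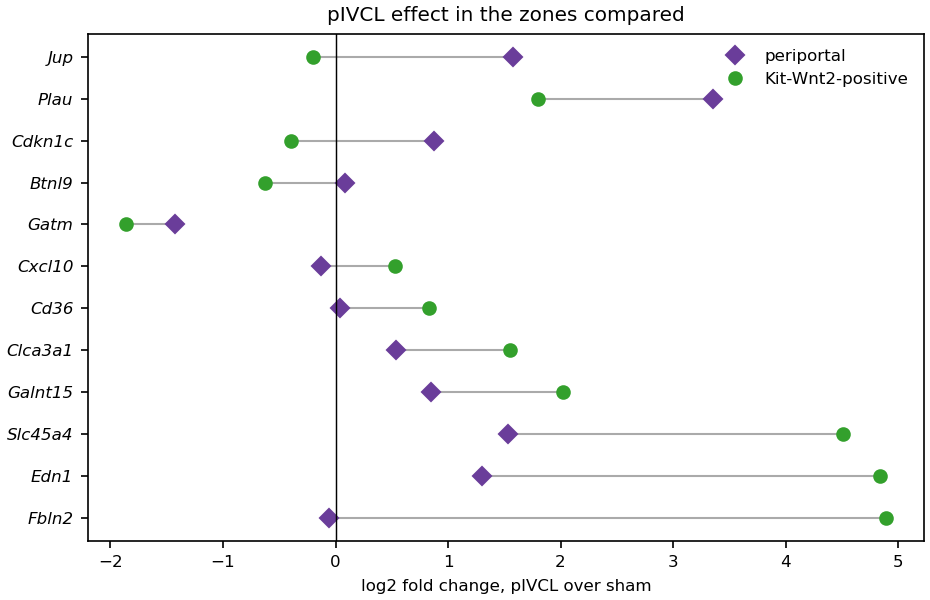
Log2 fold change of pIVCL over sham (horizontal axis) in periportal cells (violet diamonds) and in Kit-Wnt2-positive cells (green circles) for 12 genes whose change differed between them, joined by a grey line. Fbln2, Edn1 and Slc45a4 lie further right in Kit-Wnt2-positive cells, and Plau and Jup further right in periportal cells.

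Against pericentral cells that lacked all periportal markers, 14 of 8608 genes (0.163%) passed the same test, 6 with the larger value in periportal cells, and 806 had an unadjusted p under 0.05. With DESeq2 size factors in edgeR these were 5 of 18 genes. The pIVCL side of this test rests on 10, 4 and 1 pericentral cells. Against sinusoidal cells with at most 1 molecule of the periportal genes and none of Kit and Wnt2 (42, 48 and 15 cells in pIVCL, 50 and 47 in sham), 29 of 8288 genes (0.35%) passed, 26 with the larger value in periportal cells, and 5 passed without sham 1. Cd74 had the lowest p, with a difference of 3.02 ± 0.35 (adjusted p = 1.08e-13). Other genes of leukocytes and macrophages (Ctss, Cd52, C1qb, Lyz2, Trbc2 and Cybb) and of the cell cycle (Mki67, Ube2c, Tpx2, Cenpe, Ccna2 and Cenpf) were also among the 26. With stricter removal of possible doublets, 6 of 7328 genes passed. The genes of leukocytes, macrophages and the cell cycle were named after their values were seen. The part of transcripts of other cells in this comparison was not tested. Fbln2 had the smaller value in periportal cells there too, by -6.20 ± 0.88 (adjusted p = 9.35e-09). Adam23, a disintegrin listed on the periportal side, had a log2 fold change of -0.78 in periportal cells (not called), larger by 1.48 ± 0.26 than in the cells low in zone markers (adjusted p = 2.19e-05).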

How the data were processed

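Single cells of mouse liver were captured on the BD Rhapsody system after perfusion with pronase and collagenase, removal of hepatocytes by low-speed spin and a Percoll gradient, per the labels' protocols. The deposited counts are molecules per gene and cell after the manufacturer's correction of molecular identifiers, per the file headers. The file headers name version 1.9.1 of the pipeline, and the submitters' processing notes name GRCm39. The annotation, like the aligner, is not given in the sources used here. Of 19815 deposited cells 2601, 3484 and 2831 of pIVCL 1, 2 and 3 and 4441 and 3831 of sham 1 and 2 passed the filters on molecules, genes and mitochondrial share. Total molecules per library were 13532840, 24400965 and 12448260 in pIVCL and 30523228 and 25035721 in sham.

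Counts of the selected cells were summed per library and tested with edgeR 4.0.16 in R 4.3.3 (quasi-likelihood with robust dispersion, TMM scaling, filterByExpr), with Benjamini-Hochberg adjustment over all genes tested and a threshold of 0.05. The 16 genes of the selection rule were left out of the tests. The difference of effects between zones was an interaction with library as a block. CPM are TMM-scaled, whereas values by marker sum and zone ratios are plain molecules per 1000000, with 1 molecule added in each ratio. The tests were tried on simulated data with known changes, where unchanged genes made up a larger share of the calls than the threshold implies. No doublet caller was run beyond the marker limits, and stricter marker and depth limits are an alternative. No ambient RNA correction was made. Intervals cover counting error only. The labels do not say that each library is a different mouse, so the spread behind the p-values is that of these samples and may be technical.

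The members, gene lists and tests were chosen with earlier results of these data known. Named genes were the 10 largest rises and 10 largest falls among called genes whose groups did not overlap and whose mean log2 CPM reached 5, at most 6 called genes of each list, all tested genes of the further periportal, further pericentral and Notch lists, the 10 lowest p of the zone difference, the 10 most unequal genes on each side of the zone ratio, and a few picked genes. Any other gene was chosen after its values were seen. The rule for zone genes was applied to the Kit-Wnt2-positive cells, because the pericentral cells set beforehand were too few in pIVCL. Alternatives were other scaling, no expression filter, DESeq2 1.42.0, batch or replicate number as a term, 1 batch alone, each library left out, and other limits on cells. A marker sum of at least 10 and the Kit-Wnt2-positive population were added after seeing the data.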

Additional observations from a re-analysis of the deposited data

Results flagged for a closer look

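The change of 12 genes with pIVCL differed between periportal and Kit-Wnt2-positive cells by the test of the difference itself, edgeR's quasi-likelihood interaction with Benjamini-Hochberg adjustment. On the log2 scale the change in periportal cells minus that in Kit-Wnt2-positive cells was -4.92 for Fbln2, -3.49 for Edn1, -2.83 for Slc45a4, -1.16 for Galnt15, -1.02 for Clca3a1, -0.75 for Cd36 and -0.62 for Cxcl10. It was 1.73 for Jup, 1.56 for Plau, 1.20 for Cdkn1c, 0.75 for Btnl9 and 0.47 for Gatm. Over 15 alternatives the difference ran from -6.47 to -4.44 for Fbln2, from -4.72 to -3.04 for Edn1 and from -0.92 to -0.58 for Cd36, and these 3 kept their call in all of them, as did Galnt15, Plau and Btnl9. The calls of the other 6 genes were lost under 1 to 4 alternatives.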

How the results depend on the processing

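The 96 genes called between pIVCL and sham in periportal cells became 410 with no expression filter, 56 with batch as a term, 574 in batch 2021.3 alone, 158 without the Esm1 and Angpt2 limit, 52 at a marker sum of at least 10 (chosen after seeing the data), 287 with the DESeq2 Wald test, and 6 to 1337 when a library was left out. With the replicate number as a block it was 61, and 24 of the 42 named genes stayed called. Deviations of pIVCL and sham libraries that share a number had correlations of 0.0159 and 0.0339. With only 2 sham libraries these cannot decide whether the numbers pair libraries. The other 6 alternatives gave 82 to 139. Every one of the 96 genes that was tested again kept its sign under these alternatives. Without the Esm1 and Angpt2 limit the log2 fold change of Efnb1, not called, was -0.0488.

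For the difference from preset pericentral cells, 14 genes became 2 in batch 2021.3 alone, 28 at a marker sum of at least 3, 7 at 10 and 29 against Kit-Wnt2-positive cells, and 0 to 29 with a library left out (0 by edgeR without either sham library, with 270 and 263 at an unadjusted p under 0.05; DESeq2 was not run); strict doublet removal could not be fitted. For Kit-Wnt2-positive cells 29 became 82 with no expression filter, 151 in batch 2021.3 alone, 78 without the Esm1 and Angpt2 limit, 53 with strict doublet removal, 64 at 10, and 10 to 75 with a library left out. For cells low in zone markers 29 became 14 among cells of 3000 to 12000 molecules, 6 with strict doublet removal, and 5 to 33 with a library left out. The causes were not tested. Depth is limited by 206 periportal and 53 Kit-Wnt2-positive cells in pIVCL 3.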

Other observations

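A molecule of Mki67 or Top2a was found in 1.12, 3.47 and 2.43% of the periportal cells in pIVCL and 1.52 and 1.32% in sham, on 5, 24 and 5 cells in pIVCL and 13 and 11 cells in sham. In Kit-Wnt2-positive cells it was found in 1.03, 6.34 and 11.3% in pIVCL and 2.74 and 3.20% in sham, on 2, 9 and 6 of 194, 142 and 53 cells in pIVCL and 33 and 29 of 1204 and 905 cells in sham. These shares were neither thinned to 1 depth nor set against a background share, so they give no measure of cycling. Of 14 tested cell cycle genes 0 were called by edgeR's quasi-likelihood test or by DESeq2 in periportal cells, and 3 had an unadjusted p under 0.05.

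Frzb, a secreted inhibitor of Wnt ligands, was chosen after its values were seen, with 6, 32 and 11 molecules in periportal cells of pIVCL livers and 0 and 0 in those of sham livers. Spp1, the secreted protein osteopontin and a member of the cholangiocyte list, had 0, 0 and 0 molecules in pIVCL and 28 and 24 in sham.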
